A study of Mus musculus with 8 samples.

Results

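The Hox gene clusters were examined in mouse hepatocyte chromatin before and after partial hepatectomy (PHx), the surgical removal of most of the liver. The members were the 39 protein-coding genes with a Hoxa, Hoxb, Hoxc or Hoxd symbol in the GENCODE annotation, of 21938 protein-coding genes in all: 11 in HoxA, 10 in HoxB, 9 in HoxC and 9 in HoxD. The 4 clusters, each taken from its first to its last gene with 10 kb added on both sides, held 239 of the 315767 consensus open regions of the genome. Of these, 75 overlapped a Hox promoter, defined as 1 kb on either side of a transcription start site (TSS) of the GENCODE basic transcript set, and 164 lay elsewhere in the clusters. The genes and clusters were taken by symbol and position and not by a measured value, but with earlier results of these data known.

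The assay was bulk ATAC-Seq, which uses Tn5 transposase to tag accessible DNA with adapters, on mouse hepatocytes. The labels give C57BL/6 mice aged 10 to 12 weeks, whereas the study's methods name male mice of the C57BL/6J substrain and a slightly younger age at surgery. The 8 libraries comprised 2 from undamaged liver (0 h) and 2 each from liver 48, 72 and 96 h after PHx. All mice received a normal diet, and no sham-operated group was analysed here. The deposited data were 1 list of peak intervals per library, without read counts, so the depth of each library was unknown. An interval was therefore described by its rank in its own list (1 is the strongest by the peak caller's −log10 p) and by its fold enrichment over local background. The labels do not say which mouse a library came from. The study's text describes separate hepatocyte preparations as biological replicates for the ATAC-Seq at 0 h and 48 h, and its methods give hepatocytes from several mice at each of the 4 times, without saying which mouse gave which library.

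Hox genes encode homeodomain transcription factors that give cells their position along the head-to-tail axis and in the limbs and urogenital tract. They sit in 4 clusters that arose by duplication, and genes of the same number in different clusters are paralogs. Within a cluster the low-numbered genes are used in more anterior tissue and the high-numbered genes in more posterior tissue. In cells that do not use them, Hox clusters are a textbook target of Polycomb repression, and CTCF, a DNA-binding protein that anchors chromatin loops, divides them into domains.

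The 25 regions with an interval in all 8 lists carry most of what follows, and the strongest of them were not at Hox promoters. Below are the 200 bp around the summit of the region with the best median rank outside Hox promoters in HoxA, HoxC and HoxD, 5′ to 3′ from the RefSeq mm10 (GRCm38) sequence. They are shown for their CpG dinucleotides, in capitals.
HoxA region 33, chr6:52211628-52211827, plus strand: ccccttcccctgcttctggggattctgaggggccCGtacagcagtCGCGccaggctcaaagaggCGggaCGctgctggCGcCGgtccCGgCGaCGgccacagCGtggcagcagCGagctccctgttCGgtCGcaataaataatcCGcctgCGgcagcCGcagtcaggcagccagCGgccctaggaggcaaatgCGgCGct
HoxC region 39, chr15:102987506-102987705, plus strand: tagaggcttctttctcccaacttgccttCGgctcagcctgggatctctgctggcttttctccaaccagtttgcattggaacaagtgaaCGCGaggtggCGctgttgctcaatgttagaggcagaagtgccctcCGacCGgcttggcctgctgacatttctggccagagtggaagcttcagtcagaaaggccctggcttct
HoxD region 26, chr2:74715823-74716022, plus strand: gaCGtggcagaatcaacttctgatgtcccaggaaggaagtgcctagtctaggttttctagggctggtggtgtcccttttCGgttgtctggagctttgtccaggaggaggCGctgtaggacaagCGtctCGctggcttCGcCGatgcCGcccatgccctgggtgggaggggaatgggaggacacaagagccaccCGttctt
HoxA region 33, between Hoxa6 and Hoxa7 and inside an intron of the long Hoxa3 transcript and of the noncoding Hoxaas3, held 20 CpG dinucleotides in this window. HoxD region 26, at an exon of the antisense gene Hoxd3os1, held 9, and HoxC region 39, in an intron of the long Hoxc5 transcript, held 6. The next sequence is the 200 bp just upstream of the Hoxd9 start site, shown because Hoxd9 was the only Hox promoter that ranked higher in all 6 later libraries than in both 0 h libraries. It held 9 CpG dinucleotides, in capitals.
Hoxd9 upstream, chr2:74697527-74697726, plus strand: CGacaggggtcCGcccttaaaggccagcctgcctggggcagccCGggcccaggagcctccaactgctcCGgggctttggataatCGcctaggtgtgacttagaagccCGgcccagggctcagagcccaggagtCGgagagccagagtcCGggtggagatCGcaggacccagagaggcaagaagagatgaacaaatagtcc
The windows below are those outside Hox promoters, among the regions in all 8 lists, that held a match to the core CTCF motif, with at most 1 letter off, and the capitals mark the match.
HoxA region 36, chr6:52221721-52221920, plus strand: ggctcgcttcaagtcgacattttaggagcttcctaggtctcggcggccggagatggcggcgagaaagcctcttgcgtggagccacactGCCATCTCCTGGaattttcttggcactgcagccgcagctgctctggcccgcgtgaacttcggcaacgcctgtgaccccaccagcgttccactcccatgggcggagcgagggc
HoxD region 5, chr2:74673082-74673281, plus strand: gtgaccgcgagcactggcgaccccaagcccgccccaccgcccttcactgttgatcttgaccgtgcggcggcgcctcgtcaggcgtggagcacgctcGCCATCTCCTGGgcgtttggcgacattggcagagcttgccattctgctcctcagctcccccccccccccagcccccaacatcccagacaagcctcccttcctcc
HoxB region 27, chr11:96278866-96279065, plus strand: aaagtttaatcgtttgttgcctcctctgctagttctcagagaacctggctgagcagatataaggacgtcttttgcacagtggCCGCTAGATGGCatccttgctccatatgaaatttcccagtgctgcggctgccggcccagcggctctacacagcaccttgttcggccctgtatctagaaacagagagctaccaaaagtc
HoxA region 53, chr6:52270578-52270777, plus strand: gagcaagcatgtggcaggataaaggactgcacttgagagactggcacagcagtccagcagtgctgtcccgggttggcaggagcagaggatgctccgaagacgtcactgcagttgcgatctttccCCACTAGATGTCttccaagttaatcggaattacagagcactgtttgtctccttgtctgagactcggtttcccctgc
HoxA region 36 lies beside Hoxa9 and covers the annotated 5′ end of Hoxa7, which is not a start site of the basic set, HoxD region 5 lies between Hoxd13 and Hoxd12, HoxB region 27 lies between Hoxb9 and Hoxb8, and HoxA region 53 lies beyond the 5′ end of Hoxa13. The marked letters are identical in HoxA region 36 and HoxD region 5, and both read as the motif on the minus strand.

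Hox clusters were dense in listed intervals but the intervals were weak. The 4 clusters together held 84 and 47 intervals at 0 h, then 80 and 86 at 48 h, 93 and 109 by 72 h, and finally 105 and 78 at 96 h. The second 0 h library was the lowest, and it also had the shortest list, 105206 distinct intervals against 117943 to 154577 in the other 7. Per megabase the clusters held 82.2 to 190.6 intervals against 38.6 to 56.7 over the whole genome, and the cluster value was the higher one in each of the 8 lists. Intervals covered 2.74 to 6.72% of the clusters and 1.54 to 2.31% of the genome.

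HoxD and HoxA were covered more than HoxC and HoxB. Intervals covered 6.62% ± 1.20 (SD, n = 8) of HoxD on chr2:74658310-74775142, 5.67% ± 1.47 of HoxA on chr6:52145590-52270880, 3.93% ± 1.53 of HoxC on chr15:102911103-103046852, and 3.13% ± 1.06 of HoxB on chr11:96184316-96378256 (mm10). The SDs here span all libraries and so include the time points. Much of this cover came from weak intervals: within the 50000 strongest intervals of each list, coverage was 2.37% of HoxD, 2.14% of HoxA, 1.23% of HoxB and 0.591% of HoxC.

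**Figure D1:**
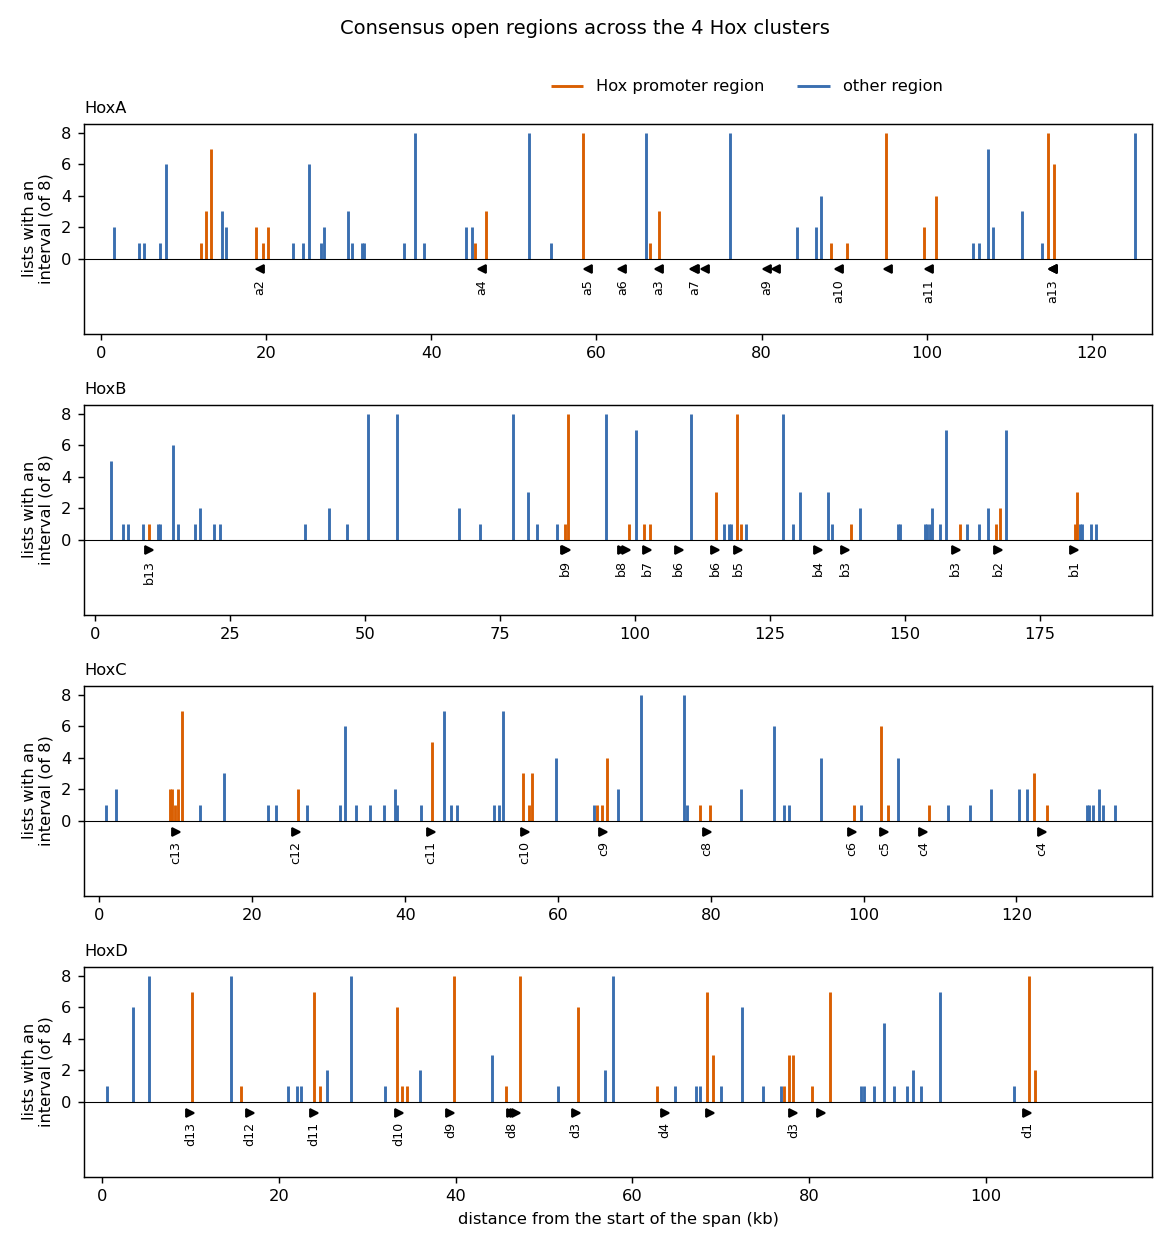
Consensus open regions along each Hox cluster, drawn by distance in kb from the start of the span. The height of a bar is the number of the 8 lists with an interval, orange bars overlap a Hox promoter, blue bars do not, and arrowheads mark most TSS and the direction of transcription. The 25 full-height bars are spread over all 4 clusters, with 8 in orange and 17 in blue, and 127 of the 239 regions appear in 1 list.

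The share of each list that fell in a cluster was compared after the values were seen, and HoxC took a larger share at every time after surgery. Per 100000 listed intervals, HoxC held 11.8 and 6.65 at 0 h, then 14.4 and 13.6 at 48 h, 17.8 and 17.5 by 72 h, and finally 16.6 and 15.7 at 96 h. Both 0 h libraries were below all 6 later ones. In the same comparison 3.95% of the 16749 genome windows of 143 kb had a larger share in all later libraries and 5.18% had a smaller one, and none of the other 3 clusters was separated in either direction. The HoxC pattern came from weak intervals: among the 50000 strongest, HoxC held 2 and 3 at 0 h and 1 to 3 in the later libraries. There HoxA was the separated cluster, with 5 and 4 intervals at 0 h and 6 to 8 later. Over the genome 1.16% of windows had more in all later libraries and 1.33% fewer. A tie was no separation, so windows without any strong interval could not be separated but were kept in these shares.

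Most Hox promoters had no interval in at least 1 list, and few had a strong one. Of the 39 Hox promoters, 10 had an interval in all 8 lists, 25 in 1 to 7 lists, and 4 (Hoxa6, Hoxa7, Hoxa9 and Hoxb4) in none. Over all 21938 protein-coding genes, 60.3% of promoters had an interval in all 8 lists and 25.1% in none. These numbers depend on which transcripts give a start site. With all annotated transcripts in place of the basic set, a choice made after the values were seen, 13 of 39 were in all 8 lists (62.4% of all coding genes) and 2 in none, Hoxa6 and Hoxb4. The promoters that joined were Hoxa3, Hoxa7 and Hoxc5, with Hoxa7 ranking 12936 and 17324 at 0 h, then 12900 and 19783 at 48 h, 20830 and 24014 by 72 h, and finally 4507 and 23912 at 96 h, the interval of HoxA region 36. Hoxc5 joined only through the Hoxc10 promoter interval, whose ranks it took in both 48 h lists and in the second 72 h list. The basic set is used below. With the basic set, none of the 39 Hox promoters was among the 50000 strongest intervals of all 8 lists, against 49.4% of all coding promoters, and 4 of 39 (10.3%) had a median rank within 50000, against 57.1%. Among promoters with an interval in all 8 lists, the median rank was 54830 for Hox genes and 11850 for all coding genes.

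The HoxA cluster had 3 promoters in all 8 lists, and the strongest was Hoxa10, which patterns the urogenital tract and limb. The Hoxa10 interval ranked 28010 and 59775 at 0 h, then 29872 and 8943 at 48 h, 16758 and 17740 by 72 h, and finally 41803 and 35964 at 96 h. The 2 libraries of 72 h lay above both of 0 h, while those of 48 h and 96 h overlapped 0 h. Hoxa13, a gene of the distal limb and genital tubercle, ranked 58947 and 98161 at 0 h, then 47147 and 28549 at 48 h, 55726 and 50500 by 72 h, and finally 71256 and 53932 at 96 h. Both libraries at 48 h and at 72 h were above both at 0 h, and 96 h overlapped 0 h. Hoxa5, a regulator of lung development, ranked 67606 and 79391 at 0 h, then 63750 and 59024 at 48 h, 87565 and 63352 by 72 h, and finally 76420 and 74302 at 96 h. Only 48 h was separated from 0 h. Of the others, Hoxa11 had an interval in 5 lists, Hoxa2 and Hoxa4 in 4 and Hoxa3 in 3.

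In HoxB, Hoxb5 and Hoxb9 were in all 8 lists. Hoxb5 ranked 40109 and 47620 at 0 h, then 32912 and 28116 at 48 h, 77833 and 30155 by 72 h, and finally 47705 and 49103 at 96 h. It was higher than 0 h in both libraries at 48 h and lower in both at 96 h, and the 72 h libraries lay on opposite sides of 0 h. Hoxb9 ranked 82078 and 37216 at 0 h, then 116874 and 48066 at 48 h, 57340 and 50667 by 72 h, and finally 70014 and 91334 at 96 h, so that every time point overlapped 0 h. Among the others, Hoxb1, Hoxb2 and Hoxb6 had an interval in 3 lists, Hoxb3 and Hoxb7 in 2, and Hoxb8 and Hoxb13 in 1. Hoxb13 is set apart from the rest of its cluster by a long intergenic stretch.

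In HoxC, Hoxc13 alone was in all 8 lists. This gene, known for its role in hair and nail, ranked 75478 and 100681 at 0 h, then 40204 and 82092 at 48 h, 41653 and 34997 by 72 h, and finally 76058 and 66536 at 96 h. Only at 72 h were both libraries above both at 0 h. Its promoter intervals formed more than 1 consensus region, none of which was in all 8 lists, so it did not enter the fit of fold enrichment. Hoxc5 had an interval in 6 lists, Hoxc9, Hoxc10 and Hoxc11 in 5, Hoxc4 in 4, Hoxc8 and Hoxc12 in 2, and Hoxc6 in 1.

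HoxD had 4 promoters in all 8 lists. Hoxd9, a trunk and limb gene, ranked 46798 and 55987 at 0 h, then 20509 and 31140 at 48 h, 37627 and 29304 by 72 h, and finally 27247 and 34849 at 96 h. All 6 later libraries were above both 0 h libraries. In the listed fold enrichment Hoxd9 was not separated, with 6.63 and 5.25 at 0 h and 5.97 to 8.09 later. After quantile normalisation its region, HoxD region 19, had log2 values of 2.569 and 2.346 at 0 h and 2.582 to 3.095 later. Whether Hoxd9 was separated thus depended on the scale. Hoxd4, a gene of the hindbrain and neck, ranked 43125 and 46230 at 0 h, then 65779 and 79026 at 48 h, 60246 and 66957 by 72 h, and finally 71073 and 49362 at 96 h. All 6 later libraries were below both at 0 h. Like Hoxc13, it had no single consensus region in all 8 lists and was not in the fit of fold enrichment. Hoxd8 ranked 40111 and 57999 at 0 h, then 64692 and 35097 at 48 h, 67175 and 45659 by 72 h, and finally 51015 and 43564 at 96 h. Hoxd1, the anterior member of the cluster, ranked 83076 and 48131 at 0 h, then 80007 and 55952 at 48 h, 77675 and 79787 by 72 h, and finally 75319 and 110096 at 96 h. Both overlapped 0 h at every time point. Hoxd3, Hoxd10, Hoxd11 and Hoxd13 had an interval in 7 lists and Hoxd12 in 1.

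**Figure D2:**
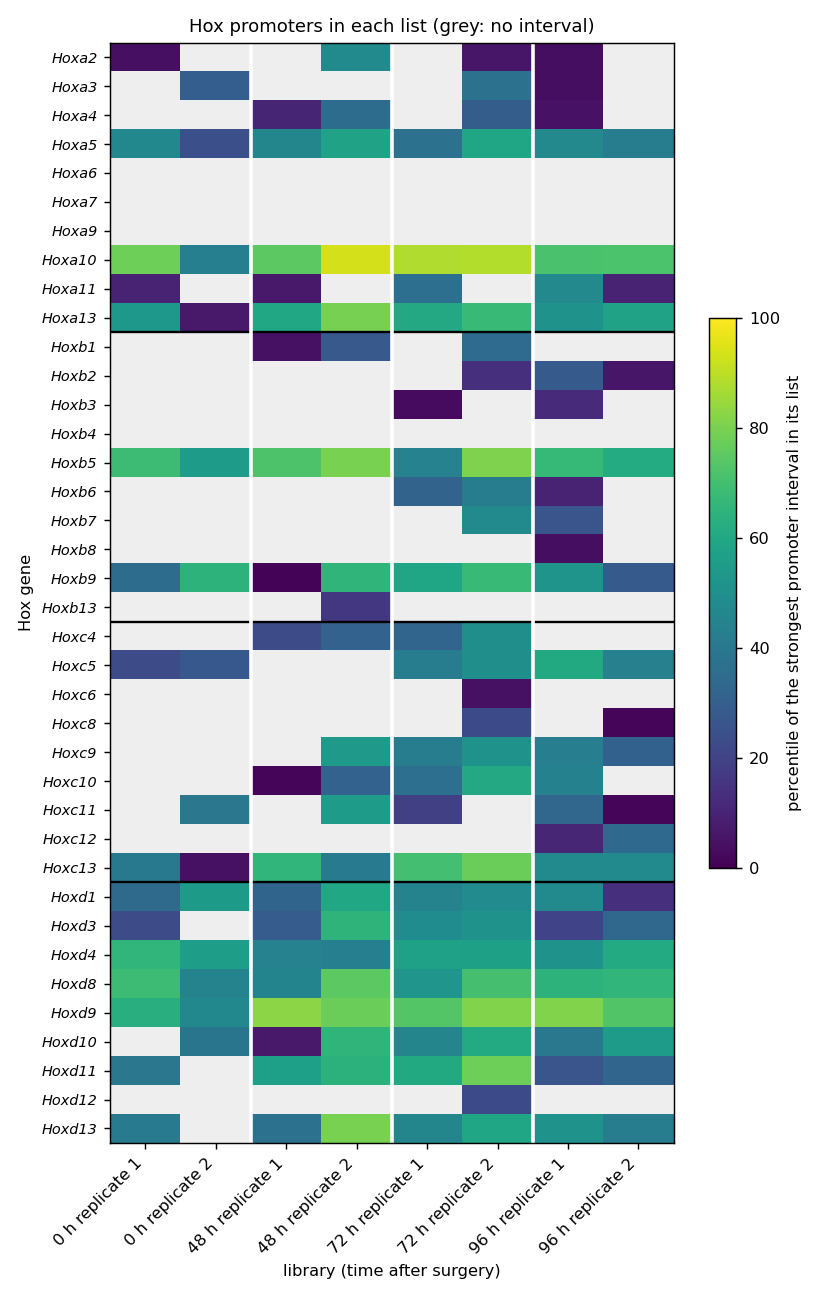
Percentile of the strongest interval at Hox promoters (rows) in each of the 8 lists (columns), where 100 is the strongest interval of a list and grey is no interval. Filled cells are most frequent in HoxD, and the highest value is that of Hoxa10 in the second 48 h library, at percentile 93.6.

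The number of Hox promoters with an interval was 17 and 14 at 0 h, then 20 and 23 at 48 h, 23 and 29 by 72 h, and finally 29 and 22 at 96 h. Every later library was above both 0 h libraries. Over all coding promoters the share with an interval ran from 64.0 to 69.4%, but most of these are in all lists or in none. Among the 3212 coding promoters in 1 to 7 lists it was 40.7 and 25.5% at 0 h, then 32.8 and 49.2% at 48 h, 51.1 and 62.2% by 72 h, and finally 53.9 and 41.1% at 96 h. The 25 Hox promoters in 1 to 7 lists had 28 and 16%, then 40 and 52%, 52 and 76%, and 76 and 48%. For the 50000 strongest intervals the Hox numbers were 5 and 4 at 0 h, then 5 and 11 at 48 h, 3 and 7 by 72 h, and finally 3 and 5 at 96 h, which overlapped at every time.

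Over whole lists, more Hox promoters ranked above 0 h than below it. Beside each count stands the share of all coding promoters, of which 25.1% had no interval in any list and so could not be separated. A promoter was counted when both libraries of a time point ranked it above, or both below, both 0 h libraries, with a missing interval placed last. An exact permutation test of 2 against 2 libraries cannot go below a one-sided p of 0.167, so no p is given, and the 3 counts share their 0 h libraries. At 48 h, 11 Hox promoters ranked higher (28.2%, against 11.6% of all coding promoters) and 2 ranked lower (5.13% against 18.7%). The higher ones were Hoxa4, Hoxa5, Hoxa13, Hoxb1, Hoxb5, Hoxc4, Hoxc10, Hoxd3, Hoxd9, Hoxd11 and Hoxd13, and the lower ones were Hoxc5 and Hoxd4. At 72 h, 10 ranked higher (25.6% against 11.7%), namely Hoxa10, Hoxa13, Hoxb6, Hoxc4, Hoxc9, Hoxc10, Hoxc13, Hoxd3, Hoxd9 and Hoxd11, and Hoxd4 alone ranked lower (2.56% against 20.4%). At 96 h, 7 ranked higher (17.9% against 10.1%), among them Hoxb2, Hoxc5, Hoxc9, Hoxc12, Hoxd9 and Hoxd13, and Hoxb5 and Hoxd4 ranked lower (5.13% against 12.9%). Against all 6 later libraries, Hoxd9 alone ranked higher (2.56% against 2.95%) and Hoxd4 alone lower (2.56% against 5.02%), both below the background share. Without the promoters that had no interval in any list, 35 Hox and 16432 coding promoters were left, and the higher shares were 31.4, 28.6 and 20% for Hox genes at 48, 72 and 96 h, against 15.4, 15.6 and 13.4%. The lower shares were 5.71, 2.86 and 5.71%, against 24.9, 27.2 and 17.2%. Hoxb5 and Hoxc5 ranked above 0 h at one time and below it at another (5.13% against 3.27%).

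Promoters near the floor of the lists were compared separately, a choice made after the values were seen. Of the coding promoters with an interval in at least 1 list, 3908 had a median rank outside the 50000 strongest, and 14.4% of them ranked higher at 48 h, 20.1% by 72 h and 14.1% at 96 h. The Hox promoters among them numbered 31, of which 9 (29%), 8 (25.8%) and 6 (19.4%) ranked higher. Lower ranks were found for 2, 1 and 1 of the 31, against 8.75, 9.47 and 7.42% of the 3908. When only the 50000 strongest intervals of each list were ranked, the higher Hox promoters numbered 3, 3 and 1 (background 9.31, 8.39 and 7.68%) and the lower ones 1, 1 and 2 (background 17.4, 19 and 11.8%). At 96 h lower ranks outnumbered higher ones among Hox promoters as they did over all coding promoters. The lower ones were Hoxd4 at all 3 times and, at 96 h, also Hoxb5. List length differed as well, with 126773 and 105206 intervals at 0 h and 117943 to 154577 later, and its part in these counts was not tested. Ranked by percentile within a list, which removes list length from the rank but not from the missing intervals, the higher counts were 10, 14 and 10 (background 13.7, 19.1 and 15.3%) and Hoxd4 no longer ranked lower than 0 h at 72 h, at 96 h or over all later libraries. Nor did Hoxb5 at 96 h, with percentiles of 67.0 and 61.5 against 68.4 and 54.7 at 0 h.

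Regions outside promoters were in all 8 lists about as often as promoter regions, and reached better ranks. Of the 164 regions outside Hox promoters 17 (10.4%) were in all 8 lists, and of the 75 promoter regions 8 (10.7%) were. A median rank within 50000 was found for 15 of the 164 (9.15%) and 4 of the 75 (5.33%), and no test was made of this difference. With all annotated transcripts 2 of the 17, HoxA regions 24 and 36, would be promoter regions, of Hoxa3 and Hoxa7. The share of regions in all 8 lists was 10.5% in the Hox clusters and 18.2% over the genome. Among the 25 Hox regions 7 ranked above 0 h in both libraries at 48 h, 7 at 72 h and 7 at 96 h (28% each time), against 19.7, 19.5 and 16.3% of the 57473 regions in all 8 lists. Those below 0 h numbered 2, 4 and 2, against 24.2, 22.8 and 19.6%. In all 6 later libraries 4 ranked higher, among them HoxA region 24, HoxB region 21 and HoxD region 19, and 0 lower, against 4.48 and 6.07%. HoxB region 37 and HoxD region 5 were above 0 h at one time and below it at another (8% against 6.25%). These comparisons of regions were added after the values were seen. The best of the 25 by median rank was HoxA region 33 (chr6:52211241-52211904), which ranked 3601 and 8536 at 0 h, then 4436 and 8045 at 48 h, 4747 and 5148 by 72 h, and finally 2405 and 8064 at 96 h. It lay within the 10000 strongest intervals of every list, and its fold enrichment ran from 11.6 to 18.9. No Hox promoter of the basic set had a rank as good as its median of 4948.

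HoxA region 36 (chr6:52221315-52222148), beside Hoxa9, ranked 12936 and 17324 at 0 h, then 12900 and 19783 at 48 h, 20830 and 24014 by 72 h, and finally 4507 and 23912 at 96 h. Both 72 h libraries were below both 0 h libraries, while 48 h and 96 h overlapped 0 h. HoxA region 53 (chr6:52270251-52271212), at the edge of the cluster beyond Hoxa13, ranked 25610 and 37880 at 0 h, then 18024 and 28574 at 48 h, 25870 and 24977 by 72 h, and finally 46450 and 45173 at 96 h. Both 96 h libraries were below both at 0 h.

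HoxB region 27 (chr11:96278664-96279122) ranked 22760 and 19169 at 0 h, then 19282 and 12892 at 48 h, 6229 and 15238 by 72 h, and finally 13921 and 29656 at 96 h, above 0 h in both libraries at 72 h only. HoxB region 32 (chr11:96294441-96295018), in introns of Hoxb6 and of the antisense gene Hoxb5os, ranked 21407 and 35094 at 0 h, then 61000 and 20836 at 48 h, 20453 and 24232 by 72 h, and finally 16052 and 20602 at 96 h. Both of its 96 h libraries were above both at 0 h.

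HoxC had 2 regions in all 8 lists, both outside promoters. HoxC region 39 (chr15:102987266-102987863) ranked 41777 and 32577 at 0 h, then 33749 and 33211 at 48 h, 49614 and 21839 by 72 h, and finally 35564 and 28595 at 96 h. HoxC region 38 (chr15:102981677-102982266), over a coding exon of Hoxc9, ranked 62047 and 38322 at 0 h, then 88507 and 64325 at 48 h, 94754 and 64165 by 72 h, and finally 60194 and 34609 at 96 h. The 48 h and 72 h libraries of HoxC region 38 were all below both at 0 h, and HoxC region 39 overlapped 0 h at every time.

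In HoxD the strongest was HoxD region 26 (chr2:74715689-74716497), at the promoter of the antisense gene Hoxd3os1, with ranks of 31685 and 33302 at 0 h, then 21203 and 35471 at 48 h, 23057 and 17907 by 72 h, and finally 15727 and 17464 at 96 h. Both libraries at 72 h and at 96 h were above both at 0 h. HoxD region 5 (chr2:74672540-74673302) ranked 29901 and 36654 at 0 h, then 21306 and 45080 at 48 h, 47798 and 62502 by 72 h, and finally 20554 and 17981 at 96 h, below 0 h at 72 h and above it at 96 h. HoxD region 3 (chr2:74663465-74663876), intergenic beyond Hoxd13, ranked 39676 and 32347 at 0 h, then 56722 and 48317 at 48 h, 27655 and 39459 by 72 h, and finally 44901 and 32203 at 96 h. Both of its 48 h libraries were below both at 0 h.

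**Figure D3:**
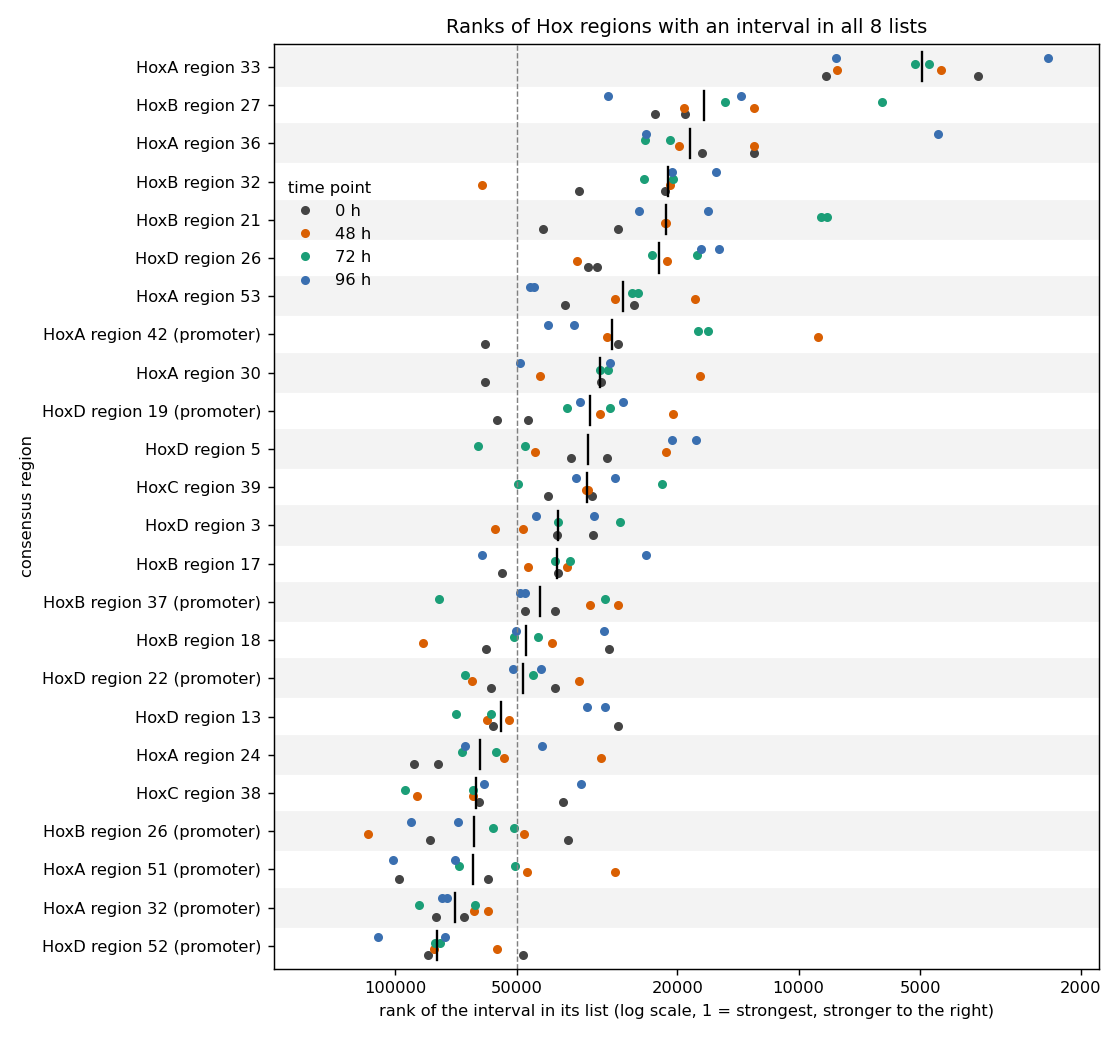
Rank in each list (log axis, stronger to the right) of Hox regions with an interval in all 8 lists, ordered by median rank (black tick). Each point is 1 library, coloured by time point, and the dashed line is rank 50000. The points of HoxA region 33 lie between 2405 and 8536, and of the 8 promoter regions, those of Hoxa10 and Hoxd9 lie above the middle of the order and the other 6 below it.

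Some promoters of noncoding genes in the clusters were also open. An interval in all 8 lists was found at 5 of 48 (10.4%), against 12.7% of 33475 noncoding genes genome-wide, and 14 of the 48 had none in any list (29.2% against 68.4%). Of the 5, Gm27280 at HoxA region 51 and Gm28793 at HoxD region 19 shared the interval of a Hox promoter. The other 3 did not: Hoxd3os1 at HoxD region 26, the long noncoding RNA Gm53 at HoxB region 21, and the antisense gene Gm29430 at HoxA region 24. The Gm53 interval (chr11:96261475-96261890) ranked 28056 and 42997 at 0 h, then 21393 and 21266 at 48 h, 8786 and 8485 by 72 h, and finally 16808 and 24823 at 96 h. All 6 later libraries were above both at 0 h. The Gm29430 interval (chr6:52183233-52183988), in introns of the long Hoxa3 transcript, ranked 89619 and 78204 at 0 h, then 30900 and 53779 at 48 h, 68185 and 56111 by 72 h, and finally 67256 and 43206 at 96 h, again above 0 h in all 6. Over the noncoding genes of the clusters 4 of 48 ranked higher in all later libraries and 1 lower. Genome-wide 0.741% and 1.19% of 33475 noncoding genes did, and a promoter without an interval cannot be separated. Such promoters made up 68.4% genome-wide and 29.2% in the clusters, so the shares have unlike bases. Of the 4, Gm28793 had the Hoxd9 interval, and Gm28309 had the ranks of Hoxd11 in all later lists. These are ranks, and the fit below called neither HoxB region 21 nor HoxA region 24.

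CTCF motif matches were present in 5 of the 25 Hox regions. With at most 1 letter off, 5 of the 25 Hox regions in all 8 lists (20%) held a match within 200 bp at the summit, against 19.4% of the 57473 regions in all 8 lists genome-wide, and outside promoters 4 of 17 (23.5%) did, against 23.0%. No Hox region held an exact match, against 6.73% of the 57473. The match at a Hox promoter was that of Hoxa10, CCACGAGATGGC at chr6:52240541-52240552 on the minus strand. Of the other motifs searched on both strands, the AP-1 motif TGANTCA was matched in 1 of the 25 regions (4%, against 7.51%), as TGATTCA in HoxB region 21 at the Gm53 promoter. The HOX-PBX motif TGATNNAT (6.43% genome-wide), the FOXA motif TGTTTAC (4.76%) and the homeodomain motif TAATTA (2.83%) had no match in the 25 windows. A match describes these letters only and does not show binding.

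Hox regions were rich in CpG also away from promoters. The 8 Hox promoter regions in all 8 lists had a median GC content of 70% and a median CpG observed/expected ratio of 0.904 in the summit window, against 66% and 0.802 for the 13462 coding promoter regions in all 8 lists. The 17 other Hox regions had 56.5% and 0.597, against 49.5% and 0.219 for 44011 regions outside coding promoters. HoxC region 38, in the Hoxc9 coding exon, had a ratio of 1.12, and HoxA region 24, at Gm29430, had 0.166. No test was made of these differences.

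**Figure D4:**
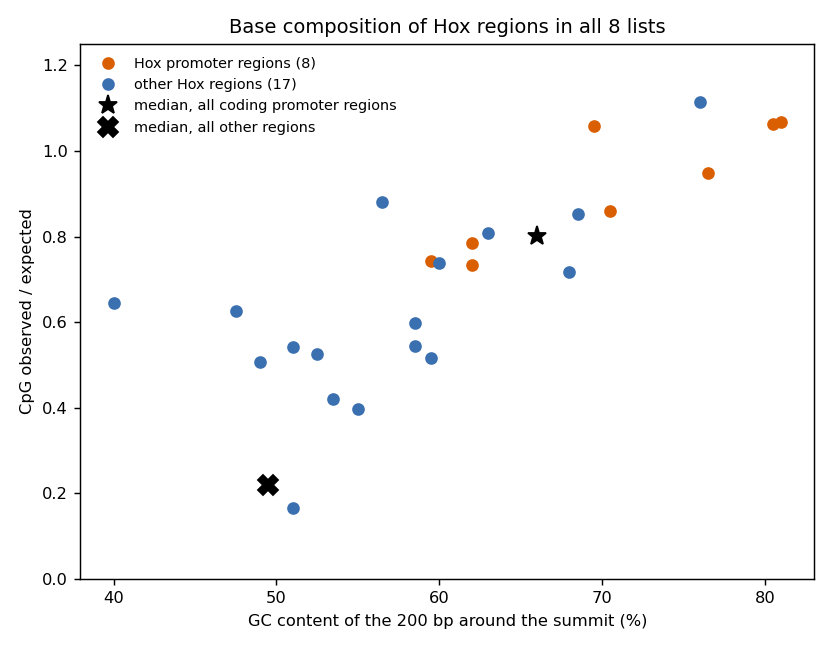
GC content (%) against CpG observed/expected ratio in the 200 bp around the summit for the 25 Hox regions in all 8 lists, with promoter regions in orange and other regions in blue. The star and the cross are the genome-wide medians for coding promoter regions and for other regions, and 16 of the 17 blue points lie above the cross in CpG ratio.

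No Hox region that entered the fit was called as changed in fold enrichment over time. The log2 fold enrichment of the 57473 regions with an interval in all 8 lists was quantile normalised and fitted in limma. Of the 239 Hox regions, 25 entered the fit. A region missing from any list, such as one gained or lost outright, could not enter. The study's own time course test reported regions that differed from 0 h at some later time. At an adjusted p of 0.05, limma called 0 of 25 Hox regions and 0 of 57473 (0%) over the 4 time points and in every contrast, higher or lower, for 48, 72 and 96 h against 0 h, for 72 and 96 h against 48 h, and for 96 h against 72 h, the last added after seeing the data. At an unadjusted p under 0.05 there were 2 Hox regions at 48 h, 4 at 72 h and 0 at 96 h against 0 h, and 5682 (9.89%), 3610 and 3266 regions genome-wide. The median log2 difference of the 25 Hox regions was 0.05, -0.04 and -0.01 at the 3 times, beside genome-wide medians of 0.0026, -0.0155 and -0.0047. The median standard error for a Hox region was 0.28. A few differences below have intervals that leave out 0, and none of them passed the adjustment over 57473 regions.

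The largest differences from 0 h are given with their intervals, since a p above the threshold does not show that a region stayed the same. HoxA region 24 at Gm29430 had a fold enrichment of 3.70 and 3.80 at 0 h, then 6.58 and 4.87 at 48 h, 4.59 and 5.18 by 72 h, and finally 4.57 and 6.13 at 96 h. All later values were above both at 0 h, and the normalised log2 difference at 48 h was 0.91 (95% interval 0.30 to 1.53, limma adjusted p = 0.36). HoxA region 51 at the Hoxa13 promoter differed by 0.80 at 48 h (0.17 to 1.44, limma adjusted p = 0.415), and from 48 h to 96 h by -0.82 (-1.46 to -0.19, limma adjusted p = 0.570). HoxB region 21 at Gm53 had a fold enrichment of 10.8 and 7.05 at 0 h, then 7.51 and 8.27 at 48 h, 14.9 and 13.0 by 72 h, and finally 11.8 and 8.48 at 96 h. Only the 72 h values lay apart from 0 h, with a log2 difference of 0.75 (0.18 to 1.32, limma adjusted p = 0.709).

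The 3 regions below were lower at 72 h at an unadjusted p under 0.05. HoxD region 5, between Hoxd13 and Hoxd12, had a fold enrichment of 9.40 and 7.95 at 0 h, then 7.54 and 5.11 at 48 h, 5.55 and 4.42 by 72 h, and finally 10.1 and 9.63 at 96 h. The 96 h values were above both at 0 h, and the 48 h and 72 h values below. After normalisation the log2 difference was -0.08 at 48 h (-0.68 to 0.52) and -0.76 at 72 h (-1.36 to -0.16, limma adjusted p = 0.711). From 72 h to 96 h it differed by 1.04 (0.44 to 1.64, limma adjusted p = 0.9997), the lowest unadjusted p of a Hox region in that contrast. HoxC region 38 in Hoxc9 differed by -0.74 (-1.45 to -0.04, limma adjusted p = 0.772), and HoxD region 13, in an intron of Hoxd11, by -0.72 (-1.34 to -0.10, limma adjusted p = 0.742). From 72 h to 96 h HoxD region 13 differed by 0.84 (0.23 to 1.46, limma adjusted p = 0.9997). For HoxA region 33, the strongest Hox region, the difference at 48 h was -0.14 (-0.66 to 0.38), and for the Hoxd9 promoter region it was 0.48 (-0.04 to 1.005, limma adjusted p = 0.542).

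**Figure D5:**
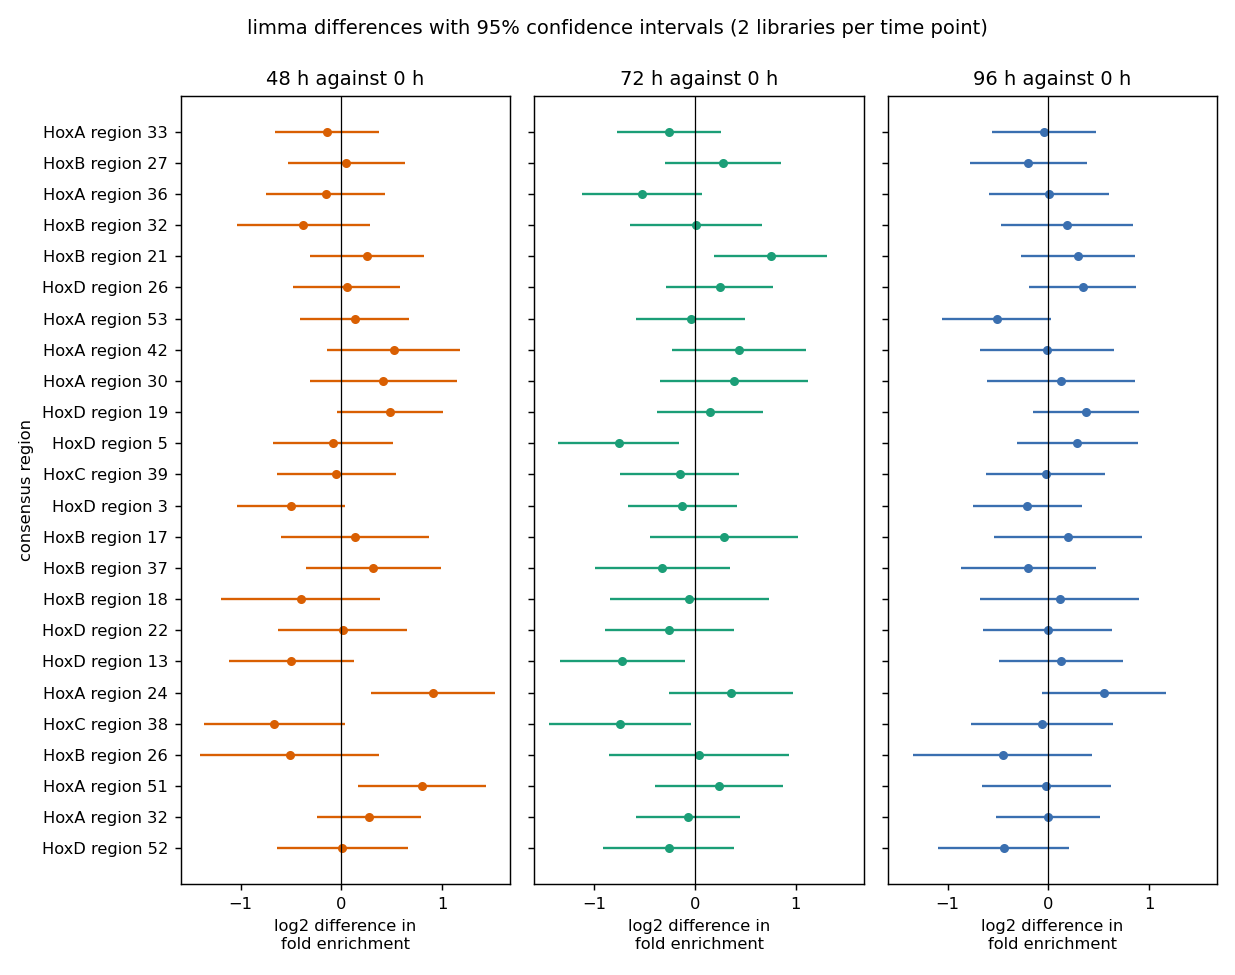
limma log2 differences in quantile-normalised fold enrichment (points) with 95% confidence intervals (lines) for Hox regions at 48, 72 and 96 h against 0 h, with 2 libraries per time point. Most intervals cross 0, and 0 regions passed an adjusted p of 0.05 in any panel.

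Promoters of genes that work with or on the Hox clusters were mostly open, apart from the upstream homeobox genes and retinoic acid receptors. The counts stand beside 60.3% of all coding promoters with an interval in all 8 lists. Promoters of all 9 TALE cofactors, the homeodomain partners that bind DNA with Hox proteins, had an interval in all 8 lists, with Pknox1 at a median rank of 2695 and Meis3 lowest at 84899. Of 22 Polycomb genes 21 were in all 8 lists, with Rnf2, the ubiquitin ligase of Polycomb complex 1, at 265. Of 13 Trithorax and demethylase genes, which oppose Polycomb, 12 were in all 8 lists, with Kmt2b at a median rank of 1906, and Kdm6b was in none. All 8 loop factors were in all 8 lists, with Ctcf at 719.5 and Stag2 lowest at 16984.5. Upstream homeobox genes and retinoic acid receptors were mixed, 7 of 15 in all 8 lists, below the share of all coding promoters. Rarb was at 4199 and Rxra at 6881, and Evx1, the homeobox gene next to HoxA, was in none.

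Promoters of most genes that flank the clusters were open. Of 15 matched neighbours 12 were in all 8 lists, beside 60.3% of all coding promoters. Snx11, near HoxB, was at a median rank of 995.5 and Calcoco1, near HoxC, at 1376. Of the remainder, Calcoco2 was in 3 lists, Smug1 in 1 and Skap1 in none. A consensus region in all 8 lists reached the Smug1 promoter window, so the count for Smug1 depends on where the single intervals end. Over these lists, promoters ranked higher and lower at 48 h numbered 2 and 3 of 9 for the cofactors, 5 and 6 of 22 for Polycomb, 2 and 4 of 13 for Trithorax, 2 and 2 of 8 for loop factors, 2 and 3 of 15 for upstream genes, and 1 and 5 of 15 for neighbours. These stand beside the background of 11.6% higher and 18.7% lower. In the same order of lists, those at 72 h numbered 0 and 3, 5 and 6, 0 and 6, 2 and 0, 4 and 0, and 0 and 4, beside 11.7% and 20.4%. The Polycomb genes that ranked higher there were Bmi1, Pcgf2, Cbx2, Phc2 and Kdm2b. By 96 h they numbered 2 and 2, 8 and 2, 4 and 3, 1 and 1, 2 and 0, and 2 and 3, beside 10.1% and 12.9%, and limma called no region of any of these lists.

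Cell type markers bear on what the preparations held, since in bulk samples a few cells of another type and a weak signal in all cells cannot be told apart. All 10 hepatocyte marker promoters had an interval in both 0 h lists and 6 to 10 did later, and at 48 h 8 of 10 ranked lower than 0 h, among them Alb and Hnf4a, beside 18.7% of all coding promoters. At 72 h 7 of 10 ranked lower (20.4%), and at 96 h 5 of 10 (12.9%), and Alb, Ttr, Cyp2e1 and Tat did so in all 6 later libraries. Intervals were found at 2 to 5 of 7 endothelial, 3 to 5 of 7 stellate and fibroblast, 1 to 2 of 7 macrophage and immune, and 3 to 5 of 6 cholangiocyte marker promoters per list. Among the defining markers, Lyve1, Acta2, Ptprc, Cd3e and Krt19 had none in any list. Other markers of the same cell types were in all 8 lists, among them Epcam at a median rank of 4154.5, Reln at 5202, Col1a1 at 20699, Lrat at 23782, Sox9 at 39853, Kdr at 69890.5 and Cd68 at 88221.5. At 48 h the stellate markers Des, Col1a1 and Reln ranked higher than 0 h, 3 of 7 beside 11.6% of all coding promoters, as did Erg of the endothelial and Cd68 of the macrophage list, while Spp1 of the cholangiocyte list ranked lower. At 72 h 0 of the endothelial, stellate, macrophage and cholangiocyte markers ranked higher, and Cd68 and Spp1 ranked lower. At 96 h Tek and Reln ranked higher. The part of other cell types in the Hox intervals was not tested.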

How the data were processed

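Bulk ATAC-Seq lists from 8 hepatocyte libraries were analysed, 2 at each of 4 time points, grouped by the sample labels. Per the study's methods, the authors trimmed reads, aligned them to mm10 with Bowtie2, removed PCR duplicates and called peaks in each library with MACS2 in the ENCODE pipeline. Versions are not given in the sources used here. The deposited lists hold the authors' fold enrichment (a ratio to local background), −log10 p, −log10 q, a summit and a display score, which was not used. The lowest deposited −log10 p was about 2, the caller's own limit, and no depth can be derived from the lists.

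Rows with the same coordinates were collapsed to 1 interval with the highest −log10 p and ranked, with ties in file order. Start sites were those of the GENCODE M21 basic transcript set. Intervals of all lists overlapping by at least 1 bp were merged into consensus regions. Log2 fold enrichment was quantile normalised and tested in limma 3.58.1 (R 4.3.3) on regions in all 8 lists, with Benjamini-Hochberg adjustment over 57473 regions. The script was tested on simulated data. Counting, motif searches and figures used Python 3.11.15. The study's own time course test needs read counts and was not repeated.

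All 39 genes entered the counts. Values in every list were given for promoters in all 8 lists, and for the 3 best regions outside promoters per cluster. A few genes and 1 region that these rules would name are not reported here. From the other lists at most 4 genes were given with ranks, those of best and worst median rank. The members and lists were chosen with earlier results of these data known. Alternatives were another ranking, promoter width, transcript set, interval filter, normalisation, region set, a replicate block and leaving out each library. Prac1 matched no annotated gene.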

Additional observations from a re-analysis of the deposited data

Results flagged for a closer look

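A few Hox elements moved in opposite directions at different times after surgery, and the difference between times was not tested for ranks, since an exact permutation test of 2 against 2 libraries cannot go below a one-sided p of 0.167. Such moves were seen for 2 of 39 Hox promoters (5.13%) and 2 of 25 Hox regions (8%), against 3.27% of all coding promoters and 6.25% of all regions in all 8 lists. The Hoxb5 promoter, which is HoxB region 37, had a mean rank of 43864.5 at 0 h and 30514 at 48 h, a difference of -13350.5 (higher in both libraries), and 48404 at 96 h (lower in both). With percentiles in place of ranks its 96 h libraries (67.0 and 61.5) overlapped 0 h (68.4 and 54.7), and the opposite direction was lost. The Hoxc5 promoter had a mean rank of 87126 at 0 h, no interval in either 48 h list, and 64581.5 at 96 h, a difference of -22544.5. With all annotated transcripts Hoxc5 had an interval in both 48 h lists, at ranks 115704 and 95280 against 97994 and 76258 at 0 h, which overlapped. These 48 h ranks are those of the Hoxc10 promoter interval, reached from another start site of Hoxc5. They therefore belong to a different site from the 0 h ranks. HoxD region 5, between Hoxd13 and Hoxd12, had a mean rank of 33277.5 at 0 h, 55150 at 72 h and 19267.5 at 96 h, a difference of -14010 for 96 h against 0 h. In the fit of fold enrichment, HoxD region 5 differed by 1.04 on the log2 scale from 72 h to 96 h (SE 0.28, limma adjusted p = 0.9997), and HoxB region 37 by -0.51 from 48 h to 96 h (SE 0.31, limma adjusted p = 0.750).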

How the results depend on the processing

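With −log10 p in place of fold enrichment, or another normalisation, region set or interval filter, or a replicate block, limma called 0 Hox regions. It called 0% of all tested regions there too, so the 0 was not particular to Hox regions. The labels do not say whether libraries with the same replicate number are paired. The correlation of same-numbered deviations between time points was -0.06 to 0.12, which cannot settle this with 2 libraries per time point. Single-region differences moved by more than 1 standard error in 112 of 939 comparisons, and in 84 they had the opposite sign to the main fit. Counts of higher promoters at 48, 72 and 96 h fell to 3, 3 and 1 within the 50000 strongest intervals (9.31, 8.39 and 7.68% of all coding promoters), and the lower count at 48 h to 1 (17.4%). With percentiles the lower counts at 72 h, at 96 h and over all later libraries were 0 (10.9, 8.05 and 2.46% of all coding promoters), and 2 promoters (Hoxc13 and Hoxd9) ranked higher in all later libraries (4.7%). Ranked by fold enrichment, 0 ranked higher in all later libraries, Hoxd9 included (2.8%). Among weak promoters only, an alternative chosen after seeing the data, 0 ranked higher in all later libraries (3.71% of weak coding promoters with an interval) and 1 lower at 96 h (7.42%). With the start sites of all annotated transcripts, also chosen after seeing the data, lower promoters numbered 1 at 48 h (18.9%) and 2 at 72 h (20.5%), Hoxa7 and Hoxd4, and 2 ranked higher in all later libraries (3.04%), Hoxa3 and Hoxd9. Leaving out 1 library gave 13 to 19, 12 to 22 and 9 to 15 higher promoters at 48, 72 and 96 h, 2 to 5, 1 to 6 and 2 to 7 lower ones, and 1 to 8 higher and 1 to 4 lower ones over all later libraries. The highest counts of higher Hox promoters came without the first library of 48 h, the first of 72 h and the first of 0 h, respectively, the counts at 96 h also moved by over 1.5 times without either 96 h library, and fewer libraries make separation easier by construction. The share of all coding promoters rose as well, to 17.9 to 23.7, 18.3 to 23 and 17.6 to 25.7% higher, to 27 to 30.4, 29.5 to 31.6 and 22 to 28.8% lower, and to 3.41 to 9.01% higher and 5.69 to 15.2% lower over all later libraries. Promoters in all lists used numbered 10 to 14 without 1 library (60.3 to 61.2% of all coding promoters). They numbered 6 with a −log10 q of at least 1.3 (59.3%) and 0 within the 50000 strongest (49.4%). Coverage without 1 library was 5.39 to 6.01% (HoxA), 2.85 to 3.29% (HoxB), 3.55 to 4.27% (HoxC) and 6.34 to 6.94% (HoxD), and within the 50000 strongest 2.14, 1.23, 0.591 and 2.37%. Clusters with a larger share of the list later numbered 1 to 2 without 1 library (2 without the first 0 h or the second 96 h library, where 12.7 and 5.3% of genome windows did), and those with a smaller share 0 to 1 (1 without the second 0 h library, 12.5% of windows). Depth is unknown, so absence of an interval is not absence of open chromatin.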
